A study of Homo sapiens with 14 samples.

Results

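The effect of Wharton's jelly MSC conditioned medium on glioma spheres was examined by setting the 3 arrays of WJT gliospheres against the 3 arrays of untreated gliospheres, which are 6 of the 14 arrays of the series. WJT are spheres kept for 7 days in conditioned medium (CM), the cell-free medium collected from mesenchymal stem cells (MSCs) of Wharton's jelly, the soft connective tissue of the umbilical cord. Gliospheres are the same kind of spheres without CM. Both came from CD133+ cells sorted from U87MG, an established human glioblastoma line that is a single line and hence a single genetic background. Both grew in ultralow-attachment culture. The untreated spheres had a fresh serum-free DMEM/F12 medium with N2, B27, EGF, bFGF and leukemia inhibitory factor. Per the study's methods, the treated spheres had mostly the same medium after its use by the MSCs, with a smaller part of fresh medium to replenish growth factors. Effects of used-up medium and of MSC products were not separated. The treated spheres were at passage 13. The labels give no passage for the untreated arrays, but the study's methods name the same passage and harvest day for the control gliospheres. The other 8 arrays (3 of spheres in bone marrow MSC CM, named BMT, 2 of negative spheres and 3 of the cultured cell line) served to estimate the spread between arrays. The arrays are labelled as biological replicates, but no label says which donor or culture each came from. The p-values therefore measure only the spread between these arrays. The fit took the negative spheres and the cell line as a single group. Differences between those cultures thus also enter the standard errors (SE) and p-values of WJT against gliospheres.

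Glioblastoma cells in culture can take on traits of mesenchymal cells: they make matrix proteins such as tenascin-C and collagens, cut the matrix with metalloproteases, and release cytokines and chemokines under the control of NF-κB. MSCs act on neighbouring cells largely through what they secrete. Cells short of amino acids switch on the transcription factor ATF4, and cells with an overfull endoplasmic reticulum (ER) switch on the unfolded protein response.

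Each array measured 67528 transcript clusters, probe groups that each cover 1 transcribed locus, as log2 signals. Of these, 23781 carry 1 gene symbol in the array annotation, and in gene lists each of 22465 genes was represented by its brightest cluster. A signal near 3.5 cannot be told from background, since the array medians lie between 3.578 and 3.916. No cluster passed a limma p adjusted over all clusters (Benjamini-Hochberg, threshold 0.05) in either direction, and the smallest adjusted p was 0.104. Before adjustment, p was at most 0.05 for 1688 clusters higher in WJT (2.5%) and 2371 lower (3.51%). The study's own criterion asks for such a p together with a change of 2-fold or more, and it was met by 260 clusters higher in WJT (0.385% of all tested) and 322 lower (0.477%). Among genes it was met by 133 higher (0.592%) and 79 lower (0.352%). These gene shares are the background for every list count below. "At the criterion" below means this rule, which carries no correction for the number of clusters, and values without it are given as measured. In bulk RNA of whole spheres, more cells of a kind and more RNA per cell cannot be told apart.

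The cells were checked against their label first. CDKN2A, CDKN2B and MTAP, which U87MG has lost, were at background on all 6 arrays, for example CDKN2A at 3.43, 3.54 and 3.48 in WJT and 3.52, 3.44 and 3.34 in gliospheres. PROM1, which encodes the CD133 protein used for the sort, was also at background, with 3.62, 3.62 and 3.53 in WJT and 3.54, 3.51 and 3.41 in gliospheres. The study measured CD133 as protein, by flow cytometry and antibody staining, and found it in these spheres. RNA signals on the array do not measure that protein. SOX2, a transcription factor of neural stem cells, had 3.71, 3.64 and 3.58 in WJT and 3.41, 3.58 and 3.65 in gliospheres. PAX6, a transcription factor of neural progenitors, had 6.35, 6.06 and 5.90 in WJT and 6.10, 5.95 and 5.36 in gliospheres. Markers of MSCs, which would come with carried-over donor cells, were at the criterion for 0 of 8 genes, with a median log2 difference of 0.20. Their mean level was 6.83, 6.77 and 6.70 in WJT and 6.32, 6.30 and 6.95 in gliospheres, so that array 3 lay above the WJT arrays and the other gliospheres below. Without array 3, 1 of 8 was higher at the criterion (PDGFRB), 0 of 8 differed below 0 and the median was 0.21. NT5E (CD73) had 18.41, 18.49 and 18.55 in WJT and 18.27, 18.29 and 16.94 in gliospheres. ENG (CD105) had 7.25, 7.29 and 7.20 in WJT and 6.47, 6.48 and 7.91 in gliospheres. THY1 (CD90) and VCAM1 were near background in WJT, with 3.38, 3.19 and 3.42 for THY1 and 3.70, 3.48 and 3.54 for VCAM1. The part of carried-over MSC RNA in the results, the stromal and matrix genes below included, was not tested.

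The 6 arrays did not split cleanly by treatment. The WJT arrays correlated with each other at 0.9907 to 0.9942 across clusters (Pearson's r, a description over clusters that share arrays). Gliospheres array 1 correlated with the WJT arrays at 0.9859 to 0.9897 and with gliospheres array 2 at 0.9834. Gliospheres array 3 correlated with arrays 1 and 2 of its own group at only 0.9643 and 0.9718. It also took the lowest array weight of the 6, at 0.593 against 1.03 and 1.40 for the other gliospheres arrays and 1.29 to 2.08 for the WJT arrays. Values without gliospheres array 3 are therefore given beside most results below. The fit without that array called 330 clusters higher (0.489%) and 438 lower (0.649%) at the criterion, and 184 genes higher (0.819%) and 202 lower (0.899%). List counts without array 3 stand beside these larger gene shares. Without adjustment and without the fold, p was at most 0.05 for 1602 clusters higher (2.37%) and 2694 lower (3.99%).

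Some genes of the tumour stroma, the connective tissue that surrounds a tumour, were among the highest in WJT relative to gliospheres. LRRC15, a membrane protein of fibroblasts in tumours, had a log2 signal of 11.66, 11.87 and 11.13 in WJT and 8.47, 7.87 and 5.40 in gliospheres. The groups lay more than 2 log2 units apart at their closest, and the log2 difference was 4.31 ± 0.65 (SE, limma adjusted p = 0.114), a 19.8-fold higher mean. PDPN, which encodes podoplanin, a mucin-like protein of invading tumour edges, had 10.60, 10.48 and 9.99 in WJT and 8.01, 6.84 and 7.65 in gliospheres, a difference of 2.86 ± 0.44 (adjusted p = 0.114). FAP, a serine protease on the surface of activated fibroblasts, had 10.74, 10.30 and 9.99 in WJT and 7.96, 7.60 and 7.29 in gliospheres, a difference of 2.73 ± 0.43 (adjusted p = 0.114). These were the members at the criterion among 16 stromal cell-surface genes, and none of the 16 was lower at the criterion. Over all genes 0.592% were higher at the criterion. Of the 16 genes, 12 differed above 0 and 4 below. PDGFRA differed by -0.83 (0.05 without array 3), S100A4 by -0.16, ACTA2 by -0.11 and TAGLN by -0.02. THY1 (0.09) and VIM (0.05) hardly differed. The median of the list was 0.26, beside 0.001 over all genes. Without gliospheres array 3 the 3 genes stayed at the criterion, with 3.38, 2.93 and 2.57, and PDGFRB, the receptor of platelet-derived growth factor on stromal cells, joined them at 1.89. With all arrays PDGFRB differed by 0.46, with 8.50, 8.27 and 7.51 in WJT and 5.79, 6.60 and 10.50 in gliospheres, so that array 3 lay above every WJT array.

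Of 31 matrix glycoproteins, 6 were higher at the criterion and 0 lower, with a median of 0.28. Over all genes 0.592% were higher and 0.352% lower at the criterion. In the list 9 genes differed below 0, among them POSTN (periostin) at -1.05, which differed by 0.87 without array 3. TNC, which encodes tenascin-C, a large hexameric glycoprotein of glioma matrix, had 14.90, 15.78 and 15.69 in WJT and 12.66, 12.13 and 12.05 in gliospheres. All WJT arrays were above all gliospheres arrays by more than 2 log2 units, the difference was 3.17 ± 0.44 (adjusted p = 0.104), and it was 3.06 without gliospheres array 3. TGFBI, a secreted protein induced by TGF-β that binds collagens and integrins, had 14.23, 14.06 and 13.17 in WJT and 10.60, 11.22 and 11.09 in gliospheres, a difference of 2.85 ± 0.53 (adjusted p = 0.171), and of 2.91 without array 3. The others at the criterion were CCN1, a matricellular signal protein, at 1.63, LTBP1, which tethers latent TGF-β to the matrix, at 1.60, DCN, the proteoglycan decorin, at 1.43, and THBS2, a thrombospondin, at 1.05. A second cluster of DCN differed by -0.21, so that gene's result rests on 1 of its 2 clusters. Without gliospheres array 3 the count was 9 of 31, beside 0.819% of all genes. DCN (1.55) then missed the criterion. Among those added were VCAN (the proteoglycan versican) at 2.26, FBN1 (fibrillin-1, a microfibril protein) at 1.93 and SPARC (a calcium-binding matricellular protein) at 1.42. VCAN had 10.57, 11.63 and 11.27 in WJT and 9.38, 8.42 and 12.28 in gliospheres, and for it and SPARC array 3 was the highest of the 6 arrays.

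**Figure D1:**
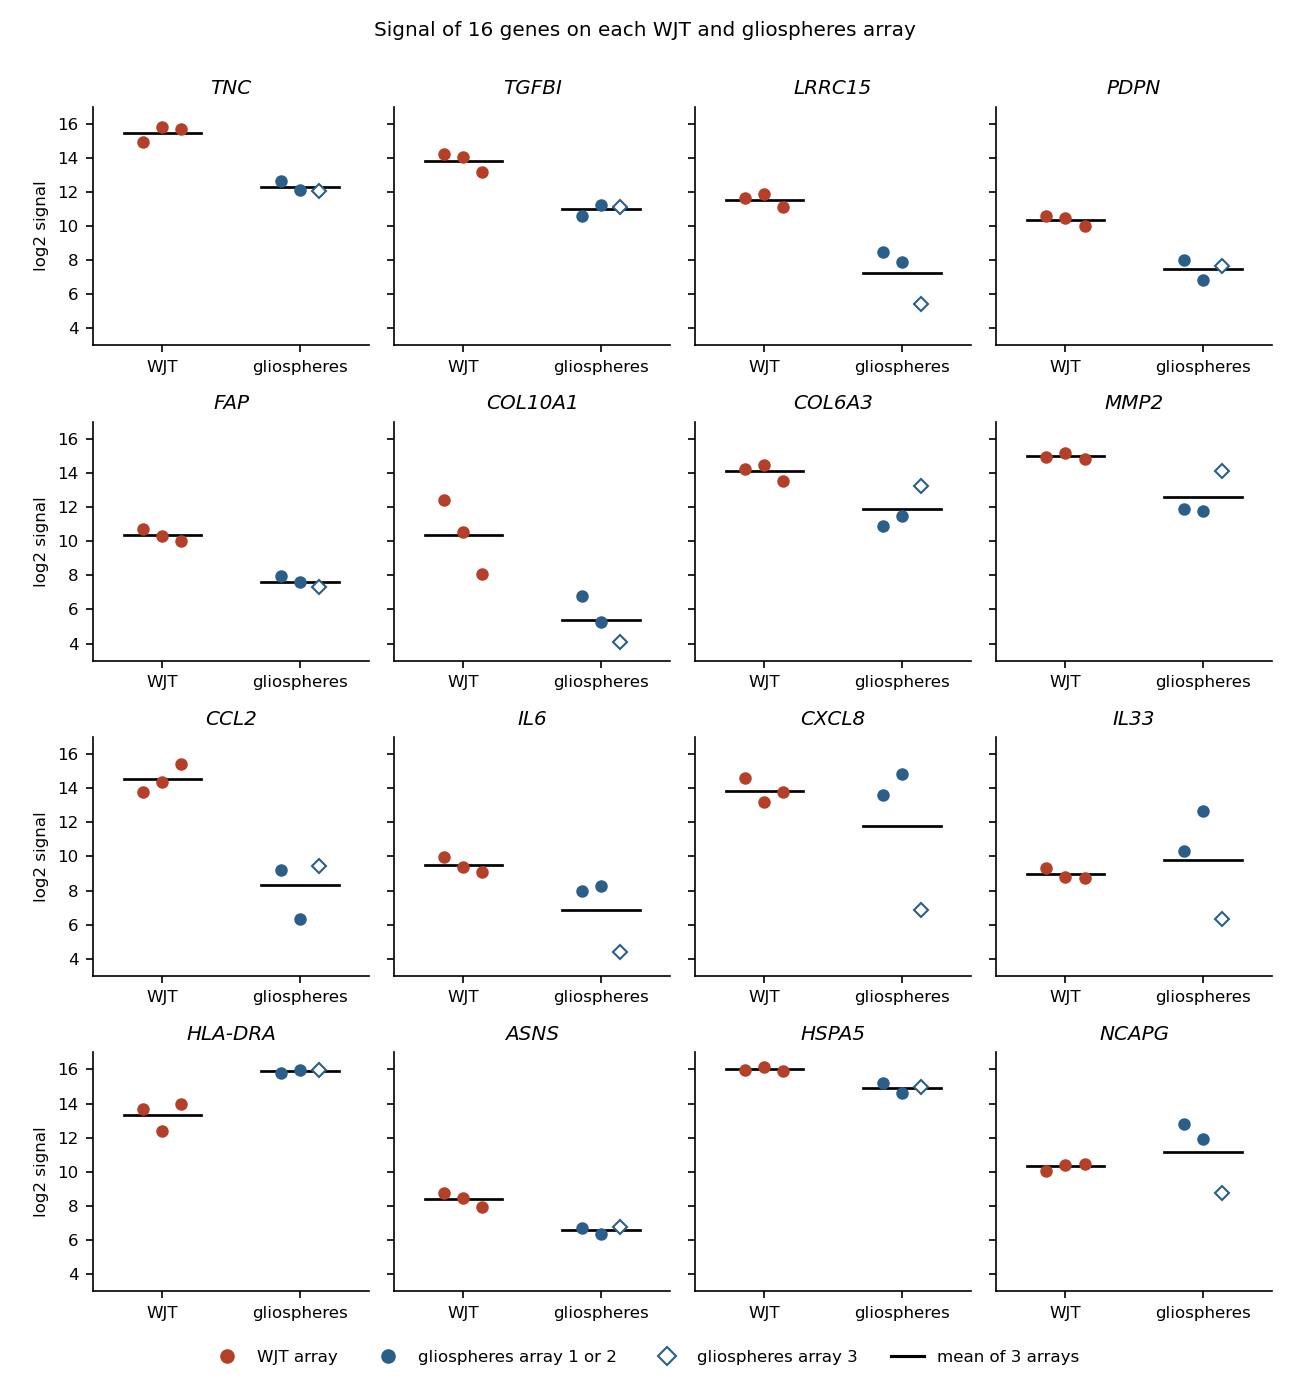
Log2 signal (vertical axis, the same scale in all panels) of 16 genes on each array, with the 3 WJT arrays left of the 3 gliospheres arrays, an open diamond for gliospheres array 3 and a bar at each mean. TNC, TGFBI, LRRC15, PDPN and FAP stand higher on every WJT array, HLA-DRA lower on every WJT array, and in IL33 and NCAPG array 3 lies below every WJT array and the other gliospheres arrays above.

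Among 36 collagen genes, 4 were higher at the criterion (0.592% of all genes were) and 0 lower. The median was 0.10, and the list's differences were carried by few members. COL10A1, the collagen of hypertrophic cartilage that also marks tumour stroma, had 12.42, 10.55 and 8.08 in WJT and 6.78, 5.27 and 4.07 in gliospheres. Both groups were widely spread but did not overlap, and the difference was 4.98 ± 0.97 (adjusted p = 0.186). COL6A3, a chain of the microfibrillar collagen VI, had 14.25, 14.49 and 13.56 in WJT and 10.88, 11.49 and 13.25 in gliospheres, so that array 3 came within about the spread of the WJT arrays. COL1A1, a chain of collagen I, differed by 1.05, and COL12A1, at the criterion with all arrays, fell short of it without array 3 (0.78). COL1A2, the partner chain of COL1A1, had 11.97, 11.78 and 11.66 in WJT and 8.05, 8.95 and 12.13 in gliospheres. Its difference was 2.09 with all arrays, not at the criterion, and 3.30 without array 3, at the criterion. In 15 of 36 collagens all WJT arrays were above all gliospheres arrays, which held for 9.13% of all genes, and these include collagens at background such as COL9A1, with 3.52, 3.47 and 3.55 in WJT and 3.46, 3.40 and 3.38 in gliospheres. Without array 3, 7 collagens were higher at the criterion (0.819% of all genes were).

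Enzymes that modify and cross-link collagen had 3 of 18 higher at the criterion (0.592% of all genes were) and 0 lower. Their median was 0.43 (0.62 without gliospheres array 3). LOX, the lysyl oxidase that starts cross-links, had 11.16, 12.21 and 11.77 in WJT and 9.87, 10.41 and 9.09 in gliospheres, a difference of 1.92. P4HA2, a subunit of prolyl 4-hydroxylase, had 8.83, 8.97 and 8.98 in WJT and 7.54, 7.55 and 7.22 in gliospheres, a difference of 1.49. Both lay wholly above gliospheres. PLOD2, a lysyl hydroxylase, differed by 1.05. Without array 3, LOX (1.57) and PLOD2 (0.87) were not at the criterion and P4HA2 (1.39) was. LOXL1, which cross-links elastin, differed by 1.84 with all arrays and by 3.13 without array 3, where it met the criterion, since array 3 had 12.20 beside 7.94 and 8.70. Of 24 integrins only ITGAV, the αv chain that binds tenascin-C and fibronectin, was at the criterion, with 13.26, 13.38 and 12.88 in WJT, 10.59, 10.67 and 11.49 in gliospheres and a difference of 2.26 ± 0.33 (adjusted p = 0.104), which was 2.54 without array 3. LRP1, an endocytic receptor that clears matrix proteases, was outside these lists and differed by 2.77.

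Matrix proteases and their inhibitors had 4 of 36 higher at the criterion (0.592% of all genes were) and 0 lower, with a median of 0.14. MMP2, a gelatinase, had 14.94, 15.18 and 14.84 in WJT and 11.88, 11.78 and 14.10 in gliospheres, a difference of 2.40 ± 0.61 (adjusted p = 0.377). MMP14, the membrane protease that activates pro-MMP2, had 11.16, 11.13 and 10.84 in WJT and 8.44, 8.47 and 10.18 in gliospheres, a difference of 2.01. Without array 3, the highest gliospheres array for both genes, the differences were 3.16 and 2.59. PLAU, the urokinase plasminogen activator, and PLAUR, its receptor, had smaller differences without array 3, at 1.98 and 1.72 with all arrays and 1.27 and 0.69 without array 3, and PLAUR was then no longer at the criterion. MMP1, an interstitial collagenase, had 8.70, 8.20 and 7.94 in WJT and 9.72, 11.32 and 3.83 in gliospheres. Its difference was -0.01 with all arrays and -2.24 without array 3, where it met the criterion as lower. CEMIP, which breaks down hyaluronan, had 8.65, 7.88 and 5.85 in WJT and 4.18, 4.53 and 4.94 in gliospheres, a difference of 2.91, and GFPT1, the first enzyme of the hexosamine pathway that feeds hyaluronan synthesis, differed by 1.11. Without array 3 these differences were 3.11 and 1.14.

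Chemokines included CCL2, which draws monocytes to tumours. It had 13.77, 14.35 and 15.45 in WJT and 9.19, 6.33 and 9.46 in gliospheres, a 73.4-fold higher mean, with a log2 difference of 6.20 ± 1.18 (adjusted p = 0.171) and of 6.76 without gliospheres array 3. CCL7, its neighbour in the chemokine cluster, differed by 1.22, at 4.53, 4.15 and 5.11 in WJT and 3.48, 3.32 and 3.32 in gliospheres, which is background. These were the 2 of 29 chemokines at the criterion, with a median of 0.07 over the list. CXCL8 and CXCL5, both neutrophil attractants, depended on array 3. CXCL8 had 14.61, 13.20 and 13.80 in WJT and 13.60, 14.84 and 6.88 in gliospheres, a difference of 2.10 with all arrays and -0.35 without array 3. CXCL5 had 5.62, 5.61 and 5.20 in WJT and 7.37, 9.19 and 4.39 in gliospheres, a difference of -1.50 with all arrays and -2.80 without array 3, where it met the criterion as lower.

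Of 28 interleukins and related inflammatory genes, 4 were higher at the criterion (0.592% of all genes were) and 0 lower, with a median of 0.08. IL6, a cytokine that signals through STAT3, had 9.96, 9.41 and 9.08 in WJT and 7.99, 8.24 and 4.40 in gliospheres, a difference of 2.61 ± 0.98 (adjusted p = 0.682). IL1A, an alarm cytokine that activates NF-κB, differed by 2.52, PTGS2, the cyclooxygenase COX-2, by 2.00, and IL11, a relative of IL6, by 1.88. In each of the 4, gliospheres array 3 was the lowest array. Without it IL6 differed by 1.37, IL1A by 1.61 and PTGS2 by 1.16, none at the criterion, while IL11 stayed at 1.47. IL33, an alarmin, then met the criterion as lower at -2.56, with 9.31, 8.77 and 8.76 in WJT and 10.32, 12.69 and 6.31 in gliospheres, as did PTGES, the prostaglandin E synthase, at -2.33. The cytokine list thus had members in both directions once array 3 was left out, and its mean level lay at 5.77 to 6.00 in WJT and at 5.65, 5.94 and 4.51 in gliospheres.

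Subunits and feedback inhibitors of NF-κB had 1 of 18 at the criterion, NFKBIZ, an inducible co-regulator that NF-κB needs at part of its targets. It had 9.02, 9.12 and 9.21 in WJT and 8.12, 7.97 and 7.04 in gliospheres, a difference of 1.41 (1.07 without array 3, still at the criterion). NFKB1, which encodes p105/p50, had 7.67, 8.13 and 8.09 in WJT and 7.19, 7.15 and 6.91 in gliospheres, a difference of 0.88 ± 0.20, and the groups did not overlap. Promoter windows of IL6 and NFKBIZ are shown because both genes carry letters of the κB kind (3 G, any 2 bases, then TTTCC, searched on both strands of 250 bases before to 50 after the gene start), given in capitals. The windows are RefSeq sequence of GRCh38.p14, at chr7:22727097-22727166 on the plus strand for IL6 and chr3:101827740-101827806 on the plus strand for NFKBIZ.
IL6: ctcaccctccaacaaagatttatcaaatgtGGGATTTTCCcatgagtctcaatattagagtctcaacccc
NFKBIZ: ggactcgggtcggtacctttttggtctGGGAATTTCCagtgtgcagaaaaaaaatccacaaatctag
The letters start 73 bases before the gene start in IL6 and 223 bases before it in NFKBIZ. They occur in 1.91% of 35116 promoters of this length, in 9 of the 15 genes of the NF-κB list that have a promoter in the table and in 4 of 20 of the cytokine list. A match describes the letters in this window only.

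MHC class II genes, which encode the proteins that present antigens to helper T cells, were mostly lower in WJT. Of 16 measured, 4 were lower at the criterion (0.352% of all genes were) and 0 higher. Before adjustment 10 were lower with p at most 0.05 (4.33% of all genes were), and the median was -0.88. In 14 of the 16 all WJT arrays were below all gliospheres arrays, which held for 8.64% of all genes. HLA-DRA, the invariant α chain of HLA-DR, had 13.68, 12.41 and 13.96 in WJT and 15.80, 15.95 and 15.99 in gliospheres, a 5.91-fold lower mean and a difference of -2.56 ± 0.80 (adjusted p = 0.544). HLA-DPA1, the α chain of HLA-DP, had 9.22, 8.98 and 9.43 in WJT and 10.64, 10.94 and 11.11 in gliospheres, a difference of -1.69. HLA-DQA1 had 6.08, 5.70 and 6.20 in WJT and 7.10, 7.17 and 7.09 in gliospheres, a difference of -1.13 ± 0.20 (adjusted p = 0.139). HLA-DMA, which helps load peptides, differed by -1.12. The array holds 7 clusters of HLA-DRA, all at the criterion with -2.61 to -2.55, and 8 of HLA-DPA1, all at it with -1.69 to -1.64, and clusters of 1 gene are no independent measurements. For HLA-DQA1 1 of 7 clusters was at the criterion (range -1.13 to -0.19) and for HLA-DMA 2 of 8 (-1.12 to -0.82). Class II genes are close in sequence, so their signals may be shared between members.

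The mean level of the list was 7.18, 6.93 and 7.28 in WJT and 7.85, 7.96 and 8.30 in gliospheres, with array 3 the highest. Without array 3 the median was -0.71 with 15 of 16 below 0. HLA-DRA and HLA-DQA1 stayed at the criterion with -2.52 and -1.14, and HLA-DPA1 (-1.58) and HLA-DMA (-0.92) did not. HLA-DPA1 kept the fold of the criterion, but its limma p before adjustment was 0.0572, with an SE of 0.74. The negative spheres and cell line, fitted as a single group, ran from 7.07 to 10.52 for HLA-DPA1 and enter that SE. CD74, the invariant chain that guards the class II groove, had 7.43, 7.17 and 7.84 in WJT and 7.77, 7.97 and 9.18 in gliospheres and was the one class II gene clearly above background whose groups overlapped. CIITA, the co-activator that class II transcription depends on, had 4.72, 4.78 and 5.09 in WJT and 5.15, 5.53 and 5.31 in gliospheres, a difference of -0.47 ± 0.17. Class II promoters carry a Y box (core letters GATTGG) at which NF-Y binds. The core is shown for a peptide-loading and a DQ gene, from GRCh38.p14 at chr6:32953142-32953207 on the minus strand for HLA-DMA and chr6:32741292-32741357 on the plus strand for HLA-DQA2.
HLA-DMA: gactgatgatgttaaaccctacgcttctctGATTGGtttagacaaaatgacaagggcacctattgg
HLA-DQA2: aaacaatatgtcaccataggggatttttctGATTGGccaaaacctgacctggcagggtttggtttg
It was found in 10 of the 13 class II genes with a promoter in the table and in 15.1% of all promoters. HLA-DQA2, which is nearly silent in most cells and close in sequence to HLA-DQA1, had 4.97, 5.08 and 4.99 in WJT and 5.87, 5.76 and 6.18 in gliospheres, a difference of -0.92. That is its brightest cluster, and its 8 clusters ranged from -1.28 to -0.33, with 1 lower at the criterion. Class I presentation genes had 1 of 17 at the criterion, PDIA3 at 1.09, and a median of 0.30, with HLA-B at 9.07, 8.65 and 8.65 in WJT and 7.65, 7.90 and 8.63 in gliospheres.

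Targets of ATF4, the regulator of amino acid supply, were higher in WJT for 5 of 25 genes at the criterion (0.592% of all genes were). Before adjustment 10 were higher with p at most 0.05 (3.3% of all genes were). By either rule 0 were lower, and the median was 0.28. ASNS, asparagine synthetase, had 8.77, 8.44 and 7.91 in WJT and 6.67, 6.36 and 6.76 in gliospheres, a difference of 1.77 ± 0.36 (adjusted p = 0.191). PSAT1, an enzyme of serine synthesis, had 13.26, 12.32 and 11.48 in WJT and 10.80, 9.49 and 10.22 in gliospheres, a difference of 2.19. SLC7A5, the transporter of large neutral amino acids, had 8.43, 8.05 and 7.10 in WJT and 6.36, 5.89 and 5.92 in gliospheres, a difference of 1.80. In all of these WJT array 1 was the highest and WJT array 3 the lowest of its group, still above every gliospheres array. ALDH1L2, a mitochondrial enzyme of folate metabolism, differed by 1.72 and CTH, cystathionine γ-lyase, which makes cysteine, by 1.37. ATF4 itself, which is regulated mainly at translation, had 11.39, 10.81 and 10.71 in WJT and 10.84, 11.10 and 10.53 in gliospheres, and the groups overlapped. Without gliospheres array 3 the same 5 genes were at the criterion, with 1.24 to 2.21. The amino acid response element of ASNS (core TGATGNAA) is shown in capitals, from GRCh38.p14 at chr7:97872439-97872506 on the minus strand, 68 bases before the gene start.
ASNS: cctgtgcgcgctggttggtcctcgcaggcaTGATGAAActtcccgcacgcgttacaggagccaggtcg
The core was found in 5 of the 21 listed genes with a promoter in the table, and in 3.62% of all promoters.

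Of 17 aminoacyl-tRNA synthetases, which charge tRNAs and are partly ATF4 targets, AARS1 (1.09) and MARS1 (1.06) were higher at the criterion and none was lower, with a median of 0.39. Without array 3 MARS1 (0.83) was not at the criterion. ER chaperones and unfolded protein response genes had 4 of 33 higher at the criterion (0.592% of all genes were) and 0 lower, with a median of 0.24. HSPA5, the chaperone BiP, had 15.98, 16.12 and 15.93 in WJT and 15.20, 14.59 and 14.94 in gliospheres, a difference of 1.10 ± 0.33 (adjusted p = 0.501). PDIA4, a disulfide isomerase, had 11.25, 11.19 and 10.91 in WJT and 10.01, 10.13 and 9.55 in gliospheres, a difference of 1.22. PDIA3, a disulfide isomerase that also serves class I loading, differed by 1.09 and HERPUD1, a part of ER-associated degradation, by 1.04, with overlapping groups. These 4 stayed at the criterion without gliospheres array 3, at 1.05 to 1.48. The ER stress element (CCAAT, any 9 bases, then CCACG, both strands), whose CCAAT letters can overlap a Y box core on the opposite strand, is shown for HSPA5 from GRCh38.p14 at chr9:125241361-125241439 on the minus strand.
HSPA5: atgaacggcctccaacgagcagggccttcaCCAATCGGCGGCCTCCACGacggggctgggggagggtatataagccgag
It was found in 6 of the 31 listed genes with a promoter in the table, and in 0.0769% of all promoters.

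**Figure D2:**
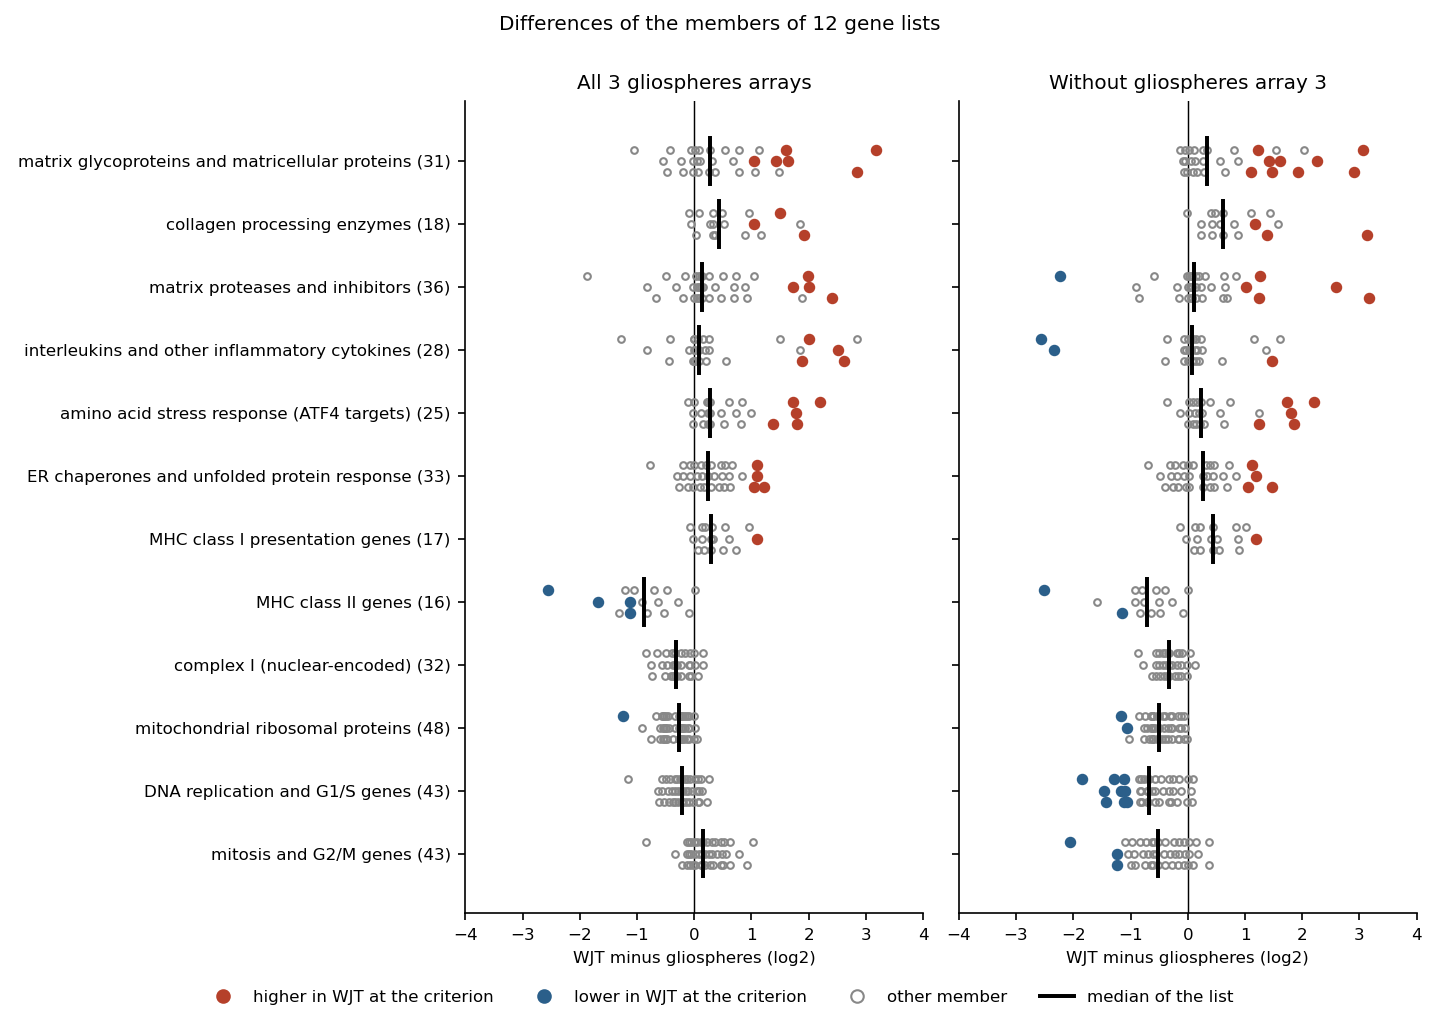
Log2 difference, WJT minus gliospheres (horizontal axis), of the members of 12 gene lists with all 3 gliospheres arrays (left) and without array 3 (right), numbers of genes in brackets. Filled points are at the criterion, open points are not, and the bar is the median. In the class II list 15 of 16 members lie below 0 in both panels (medians -0.88 and -0.71), while the DNA replication list has 0 filled points on the left and 9 on the right.

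Among 16 genes of fatty acid synthesis and desaturation 1 was higher and 1 lower at the criterion. FASN, the fatty acid synthase, had 8.34, 8.20 and 8.22 in WJT and 6.72, 6.10 and 7.18 in gliospheres, a difference of 1.59 ± 0.27 (adjusted p = 0.125). FADS2, a desaturase, had 8.56, 8.80 and 8.63 in WJT and 7.71, 7.68 and 7.96 in gliospheres, a difference of 0.88 ± 0.13 (adjusted p = 0.104), under the fold of the criterion. ELOVL6, which elongates palmitate, went the other way, at 7.65, 7.91 and 8.06 in WJT and 8.92, 9.10 and 10.18 in gliospheres, a difference of -1.53. In cholesterol synthesis 2 of 20 genes were at the criterion, INSIG1, the sterol sensor partner that holds SREBP in the ER, at 1.53 and DHCR7, the last enzyme of cholesterol synthesis in one branch, at 1.23. INSIG1 had 13.57, 13.59 and 13.56 in WJT and 12.45, 12.41 and 11.27 in gliospheres. HMGCS1, at the head of the pathway, differed by 1.22, and by 0.54 without array 3, and its groups overlapped. Without array 3 FASN (1.85), ELOVL6 (-1.14), INSIG1 (1.15) and DHCR7 (1.04) stayed at the criterion. The median of the cholesterol list was 0.14 with all arrays and -0.00 without array 3, where 2 genes were higher and 1 lower at the criterion.

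Most genes of respiration and of the mitochondrial ribosome had small negative differences. Of 32 nuclear-encoded complex I genes 28 differed below 0, with a median of -0.32, beside 0.001 over all genes. None was at the criterion, and 6 were lower with p at most 0.05 before adjustment (4.33% of all genes were). Of 16 complex V (ATP synthase) genes 14 differed below 0, with a median of -0.41, 0 at the criterion and 4 lower at that p. All WJT arrays were below all gliospheres arrays in 10 complex I and 7 complex V genes, which held for 8.64% of all genes. It also held for 2 of 10 genes of complexes II and III, with a median of -0.22. Of 13 complex IV genes 10 differed below 0, with a median of -0.26. In that complex only 1 gene lay wholly below gliospheres, and 2 lay wholly above. In complex IV COX8A, a small cytochrome c oxidase subunit, was lower at the criterion, with 15.53, 14.11 and 13.95 in WJT and 16.08, 15.73 and 16.38 in gliospheres, a difference of -1.54, and without gliospheres array 3 (-1.38) it was not. Of 48 mitochondrial ribosomal proteins 45 differed below 0, with a median of -0.27, and MRPS34, of the small subunit, was at the criterion at -1.25, with 8.96, 8.79 and 8.24 in WJT and 9.28, 10.35 and 10.09 in gliospheres. The complex I mean was 7.86, 7.59 and 7.62 in WJT and 7.83, 8.22 and 7.92 in gliospheres, and WJT array 1 exceeded gliospheres array 1. Without gliospheres array 3 the medians were -0.34 for complex I and -0.42 for complex V, and all 48 mitochondrial ribosomal proteins differed below 0, with a median of -0.50 and 2 at the criterion.

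Cell cycle genes depended on gliospheres array 3. With all arrays limma called 0 of 43 DNA replication and G1/S genes at the criterion, 0 had an unadjusted p of at most 0.05 in either direction, and the median was -0.21. Without array 3 the criterion was met by 9 as lower and 0 as higher. Over all genes the share lower at the criterion also rose, from 0.352% to 0.899%. Before adjustment 23 of the list were lower with p at most 0.05 (5.84% of all genes were), and the median was -0.67. The mean level of the list was 7.14, 7.42 and 7.34 in WJT and 8.13, 7.74 and 6.71 in gliospheres, so that the WJT arrays lay between array 3 and the other gliospheres. CDC6, which loads the replicative helicase, had 8.88, 9.24 and 9.28 in WJT and 10.76, 10.45 and 7.86 in gliospheres. PRIM1, the primase, had 8.30, 8.80 and 8.61 in WJT and 10.58, 10.24 and 8.35 in gliospheres. Their differences were -0.56 and -1.16 with all arrays and -1.47 and -1.85 without array 3. CCNE2, the G1/S cyclin E2, then differed by -1.42 and MCM3, a helicase subunit, by -1.28.

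For 43 mitosis and G2/M genes the median was 0.16 with all arrays and -0.52 without array 3, so its sign turned. The mean level was 10.24, 10.35 and 10.29 in WJT and 11.03, 10.52 and 8.74 in gliospheres. NCAPG, a condensin subunit, had 10.06, 10.41 and 10.47 in WJT and 12.79, 11.94 and 8.76 in gliospheres, a difference of -0.85 with all arrays and -2.05 without array 3. PLK4, the kinase of centriole duplication, and NDC80, a kinetochore protein, both differed by -1.24 without array 3 and by -0.33 and -0.09 with it. MKI67, the proliferation marker Ki-67, had 11.95, 13.74 and 13.45 in WJT and 13.90, 12.14 and 11.40 in gliospheres, and TOP2A, topoisomerase IIα, had 13.75, 13.87 and 13.60 in WJT and 14.05, 13.25 and 10.87 in gliospheres. Both genes overlapped between groups with and without array 3. In ribosome biogenesis, 1 of 42 genes was lower at the criterion with all arrays (0.352% of all genes were) and 6 without array 3 (0.899%). UTP14A, a factor of the small-subunit processome, had 7.38, 7.36 and 7.41 in WJT and 9.48, 8.75 and 7.81 in gliospheres, a difference of -1.30, and of -1.73 without array 3.

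**Figure D3:**
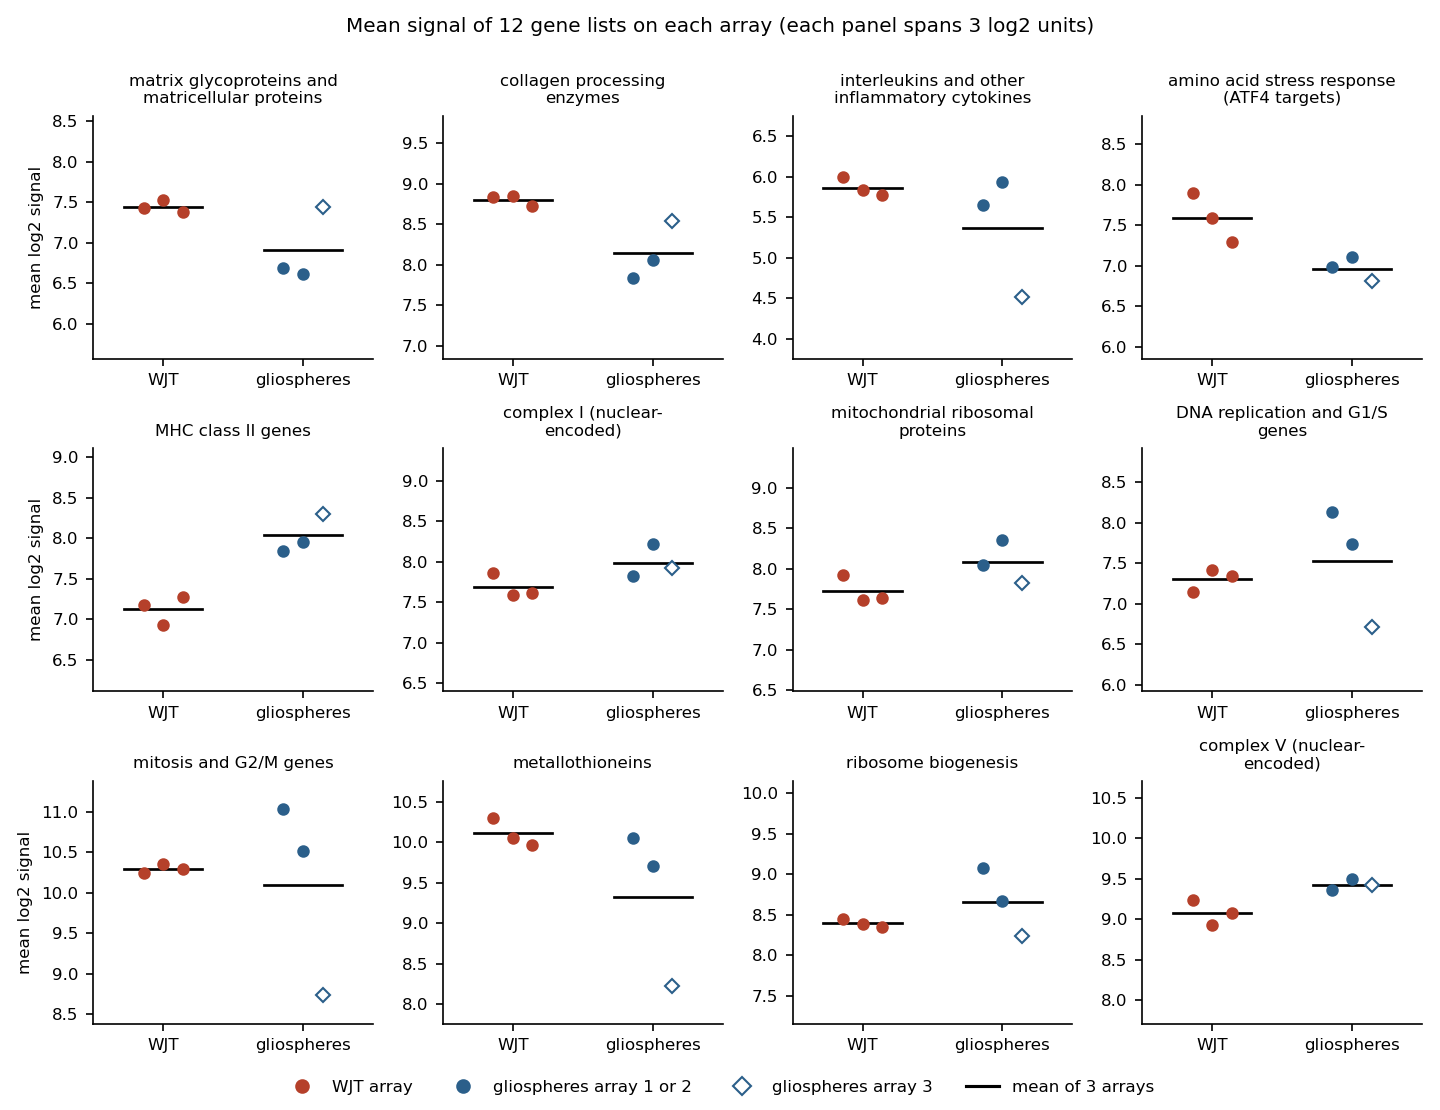
Mean log2 signal (vertical axis, each panel spanning 3 log2 units) of 12 gene lists on each array, with WJT left of gliospheres, an open diamond for gliospheres array 3 and a bar at each mean. The class II and ATF4 lists separate the groups on all arrays, whereas in the DNA replication, mitosis, cytokine and metallothionein lists gliospheres array 3 is the lowest array, for example at 8.74 in the mitosis list against 10.24 to 10.35 in WJT.

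Of 41 growth factors and receptors 3 were higher at the criterion (NRP2, FGF7 and EREG, which encodes epiregulin) and 1 lower (IGFBP6). Without array 3 only NRP2 (2.29) remained higher, EREG went to 0.76 beside 1.42 with all arrays, and IGFBP6 (-1.71) remained lower. NRP2, a co-receptor of VEGF-C and semaphorins, had 10.53, 10.64 and 10.15 in WJT and 8.20, 8.10 and 6.61 in gliospheres, a difference of 2.80 ± 0.54 (adjusted p = 0.171). FGF7, keratinocyte growth factor, had 11.07, 10.07 and 10.18 in WJT and 9.10, 8.16 and 5.08 in gliospheres, a difference of 2.99, and of 1.81 and no longer at the criterion without array 3. Outside the list, IGFL3, a small secreted protein of the insulin-like growth factor family, had 15.19, 14.19 and 12.74 in WJT and 11.42, 12.33 and 7.41 in gliospheres, a difference of 3.65 (2.17 without array 3). GREM1, an antagonist of bone morphogenetic proteins, had 13.97, 12.54 and 11.79 in WJT and 11.34, 11.43 and 6.64 in gliospheres, a difference of 2.96 (1.38 without array 3). For all 3 genes the difference was over 1 log2 unit smaller without array 3. IGFBP6, which binds IGF-II, was lower, at 8.35, 7.52 and 7.85 in WJT and 9.17, 10.07 and 8.81 in gliospheres, a difference of -1.44.

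Of 12 genes that the study names from a PCR array of treated gliospheres, in either CM, PLAUR alone met the criterion, and it did not without array 3 (0.69). For WJT the study lists FOXP1, CXCL8 and PLAUR as higher. It lists ABCG2, DKK1, ID1, KITLG, EPCAM and LIN28B as lower, with p below its threshold only for DKK1 and KITLG. NANOG, JAG1 and POU5F1 were listed for bone marrow CM only. PCR and array signals are unlike measures, so the criterion here does not retest the PCR calls. KITLG, the ligand of the KIT receptor, had 5.71, 5.36 and 5.85 in WJT and 5.98, 6.23 and 7.53 in gliospheres, a difference of -0.94 ± 0.36 (adjusted p = 0.693) and of -0.46 without array 3. DKK1, a secreted Wnt antagonist, had 4.13, 4.31 and 4.33 in WJT and 4.83, 4.71 and 4.40 in gliospheres, a difference of -0.39 ± 0.42 (adjusted p = 0.996). Both were lower on every WJT array than on every gliospheres array, by less than the fold of the criterion. Such a separation held for 8.64% of all genes, and for DKK1 the closest arrays were at 4.33 and 4.40. ID1, an inhibitor of differentiation, had 5.45, 5.25 and 5.08 in WJT and 5.66, 7.49 and 6.99 in gliospheres, a difference of -1.45. ABCG2, a drug efflux pump, had 4.85, 5.04 and 5.23 in WJT and 5.78, 6.27 and 5.37 in gliospheres, a difference of -0.77. ID1 and ABCG2 too were lower on every WJT array than on every gliospheres array. FOXP1, a transcription factor, differed by 0.04 ± 0.18. No gene of 29 glioma stem and pluripotency genes or of 22 neural lineage markers was at the criterion, with medians of 0.04 for both lists. The mean level of the neural list was only 4.01 to 4.04 in WJT and 4.02 to 4.14 in gliospheres. PROM1 and SOX2 were near background, as was NANOG, at 3.13 to 3.36 in WJT and 3.02 to 3.45 in gliospheres. For genes near background a fall could not have been seen, so these counts do not show that they were unchanged. GFAP, the astrocyte filament protein, had 3.73, 3.66 and 3.68 in WJT and 3.55, 3.53 and 3.57 in gliospheres, which is background.

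Apart from class II, several genes lower in WJT were single members of their families. ABCC2, an efflux transporter of conjugated drugs, had 6.50, 6.31 and 6.72 in WJT and 8.08, 8.94 and 10.24 in gliospheres, a difference of -2.57 ± 0.45 (adjusted p = 0.139), and it was the 1 of 28 ABC transporters lower at the criterion, with 0 higher. AQP9, a channel for water, glycerol and lactate, had 7.65, 7.42 and 8.44 in WJT and 10.57, 9.30 and 11.05 in gliospheres, a difference of -2.47 ± 0.44 (adjusted p = 0.155). NETO2, an auxiliary subunit of kainate receptors, had 10.29, 9.87 and 9.76 in WJT and 11.14, 11.72 and 11.24 in gliospheres, a difference of -1.39 ± 0.26 (adjusted p = 0.171). These 3 stayed at the criterion without array 3. Some genes of small p had differences under the fold of the criterion. PAPPA2, a protease of IGF-binding proteins, was higher at 5.37, 5.24 and 5.05 in WJT against 4.26, 4.26 and 4.37 in gliospheres (0.93 ± 0.11, adjusted p = 0.104). ATP8B4, a putative lipid flippase, was lower at 4.43, 4.23 and 4.41 in WJT against 5.03, 5.42 and 5.27 in gliospheres (-0.88 ± 0.11, adjusted p = 0.104).

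Gliospheres array 3 was set against the others gene by gene. Of the 260 clusters higher at the criterion 172 (66.2%) stayed at it without array 3, and of the 322 lower 154 (47.8%) did, and none of either changed sign. Counting clusters in which the mean of the other 2 gliospheres arrays differed at least 2-fold from WJT, array 3 lay above all WJT arrays with the others below in 76, and below with the others above in 171, against 38 and 184 for array 1 and 25 and 7 for array 2. RANBP3L, a nuclear export factor of SMAD proteins, had 4.59, 4.72 and 4.70 in WJT and 3.52, 3.75 and 13.37 in gliospheres. PI3, the elastase inhibitor elafin, had 12.98, 12.48 and 14.06 in WJT and 16.64, 15.64 and 4.80 in gliospheres. SERPINB4, a protease inhibitor of squamous epithelia, had 6.07, 6.06 and 6.82 in WJT and 9.15, 10.99 and 3.77 in gliospheres. MFAP4, a microfibril protein, had 9.78, 8.74 and 8.41 in WJT and 6.30, 6.78 and 12.16 in gliospheres. For RANBP3L array 3 exceeded the next of the 14 arrays, a BMT array at 5.42, by more than 7 log2 units. Without it the differences were 1.03 for RANBP3L, -2.97 for PI3, -3.76 for SERPINB4 and 2.44 for MFAP4, all at the criterion, and with it -2.21, 0.82, -1.66 and 0.57, none at the criterion.

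**Figure D4:**
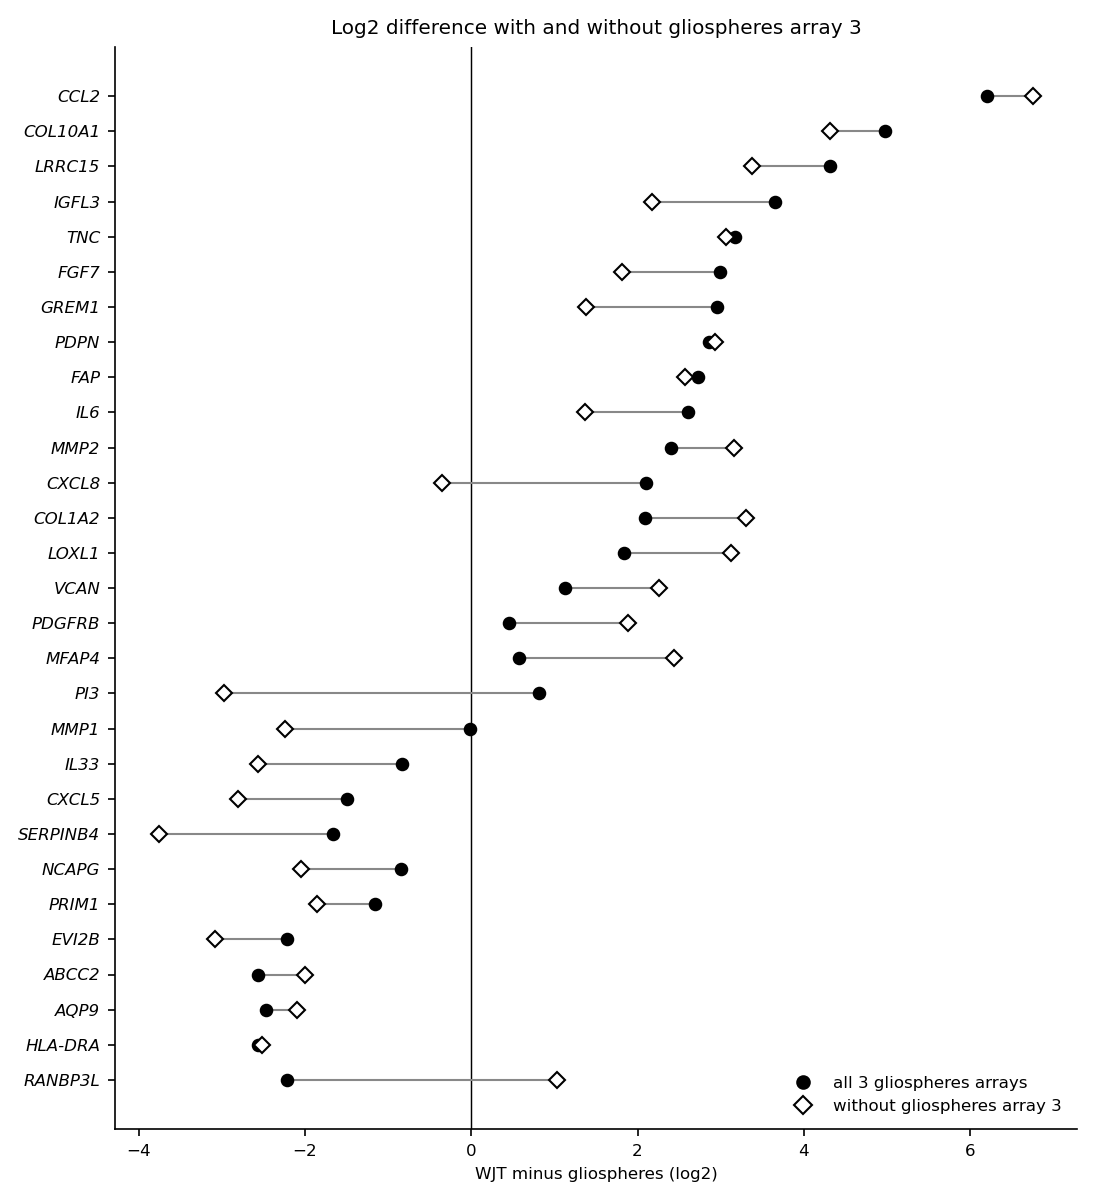
Log2 difference, WJT minus gliospheres (horizontal axis), of 29 genes with all 3 gliospheres arrays (filled circles) and without array 3 (open diamonds). TNC, PDPN, FAP and HLA-DRA hardly move, while CXCL8, PI3 and RANBP3L cross 0.

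The counts depended on other arrays too. Leaving out gliospheres array 1 gave 366 clusters higher and 714 lower at the criterion, of which 292 were among the 322 with all arrays, and 20 higher and 41 lower at an adjusted p below 0.05. Leaving out gliospheres array 2 gave 240 and 283 at the criterion, and leaving out 1 WJT array gave 216 to 275 higher and 212 to 285 lower. Leaving out WJT array 3 gave 8 higher at an adjusted p below 0.05, and leaving out gliospheres array 3 gave 1 lower (0.00148% of clusters).

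**Figure D5:**
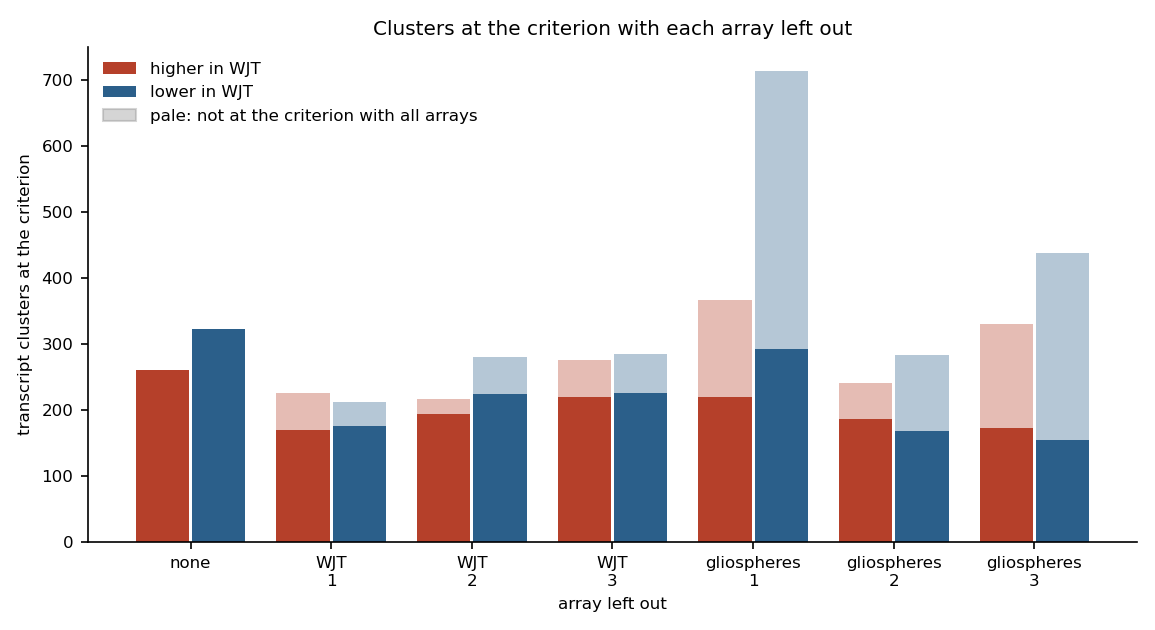
Transcript clusters at the criterion (vertical axis) with no array or 1 array left out (horizontal axis), as a left bar for those higher and a right bar for those lower in WJT, with the pale part for clusters not at the criterion on all arrays. The count of lower clusters runs from 212 without WJT array 1 to 714 without gliospheres array 1.

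The other 8 arrays place the levels of these genes, with no test made on them. For FAP, the cell line had 11.74, 10.10 and 10.50 and the negative spheres 9.89 and 10.48, so that WJT (9.99 to 10.74) lay within the range of these 5 arrays and gliospheres below it. TGFBI was likewise at 12.81 to 15.42 and MMP2 at 13.25 to 15.62 in the cell line, around the WJT levels. LRRC15, at 6.58 to 8.38 in the cell line, and TNC, at 11.66 to 13.68, stood near the gliospheres levels there, and for LRRC15 all WJT arrays exceeded the other 11 arrays of the series. HLA-DRA was at 12.80 and 14.59 in the negative spheres, below every gliospheres array. BMT spheres had 14.75, 14.65 and 14.98 for TNC and 13.90, 15.61 and 12.26 for CCL2, beside the WJT values given above.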

How the data were processed

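The authors hybridised total RNA of each sample to an Affymetrix Human Transcriptome Array and, per the labels and methods, normalised the arrays with SST-RMA in Transcriptome Analysis Console. The deposited values are log2 signals per transcript cluster. From these values, 67528 transcript clusters were fitted with limma 3.58.1 in R 4.3.3 (groups WJT, BMT, gliospheres, and negative spheres with the cell line as control), with empirical Bayes moderation and Benjamini-Hochberg adjustment over all clusters. Other probe sets (2995) were left out, and no filter on low signals was set. The fit was tested on simulated data. The number of arrays limits the precision. Differences are WJT minus gliospheres.

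Named genes were, from clusters with 1 symbol: the 15 largest differences in each direction at the criterion with groups that do not overlap, the 10 of smallest p in each direction with and without gliospheres array 3, the 10 that moved most without it, 12 genes the study names from its PCR array of treated gliospheres, antibody markers, and for each list up to 6 members at the criterion and up to 3 that define it. Further members were chosen after their values were seen. Members and lists were chosen with earlier results of these data known. Promoters are RefSeq sequence of GRCh38.p14, 250 bases before to 50 after each start. Alternatives covered the arrays in the fit, scaling, filters, array weights and each array left out.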

Additional observations from a re-analysis of the deposited data

How the results depend on the processing

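The counts depended on the processing, and 11 of the genes described in the results changed sign under at least 1 alternative. At the adjusted p, a fit of the 3 groups of spheres gave 2 clusters higher and 1 lower, array weights gave 92 and 82, and leaving out 1 array gave 0 to 20 higher and 0 to 41 lower. Without gliospheres array 3 a fit of the spheres only gave 234 and 507, and the 5 arrays alone or quantile normalization gave 0 lower. At the criterion, the 3 groups of spheres gave 606 lower, quantile normalization 371 higher and 200 lower, array weights 544 lower, a log2 difference of at least 2 gave 39 and 66, and clusters with 1 symbol 134 and 95. Leaving out 1 array gave 216 to 366 higher and 212 to 714 lower. Without gliospheres array 3 the 5 arrays gave 399 and 629, the spheres only 692 lower and quantile normalization 274 lower. The fits without array 3 of the spheres only and with quantile normalization were added after the data were seen. Of single genes, quantile normalization turned MMP1 to 0.16 and NDC80 to 0.09, median centring turned MMP1 to 0.01, and array weights turned PI3 to -0.67. With 1 array left out at a time, the log2 difference ranged from -0.46 to 1.89 for PDGFRB, -2.24 to 1.51 for MMP1, -0.35 to 3.63 for CXCL8, -2.56 to 0.63 for IL33, -0.06 to 0.29 for ATF4, -1.24 to 0.19 for PLK4, -1.24 to 0.61 for NDC80, -0.06 to 0.21 for FOXP1, -3.89 to 1.03 for RANBP3L, -2.97 to 2.96 for PI3 and -0.49 to 2.44 for MFAP4. The cause was not tested.

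With the replicate number as a replicate block, 263 clusters were higher and 407 lower at the criterion and 0 at the adjusted p, against 260 and 322 without it. Arrays of the same number correlated at 0.13, -0.24 and 0.12 in their deviations, and arrays of different numbers at -0.28 to 0.26. These values cannot tell whether arrays of the same number share a culture or a batch.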
